A study of Mus musculus with 8 samples.

Results

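The liver X receptors and the genes of cholesterol and lipoprotein handling that they are known for were followed on the 4 Agilent arrays of a mouse reprogramming series. The members were 9 genes, taken by symbol: the receptors Nr1h3 and Nr1h2, the sterol exporters Abca1 and Abcg1, the apolipoprotein gene Apoe, the lipase gene Lpl, the lipogenic genes Srebf1 and Scd1, and Mylip, which encodes a ubiquitin ligase. They were measured by 11 probes and 20 spots, out of 27590 genes, 41015 probes and 43379 spots on the array.

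Liver X receptors are nuclear receptors that bind oxysterols, which are oxidised forms of cholesterol, and that act as heterodimers with retinoid X receptors. On binding an oxysterol they raise transcription of genes for cholesterol export, for lipoprotein remodelling and for fatty acid synthesis, and they raise Mylip, whose product marks lipoprotein receptors for degradation. They recognise a direct repeat of a short hexamer with a spacer of 4 bases, called a DR4 element. The pathway is best known from macrophages, liver and intestine.

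Total RNA came from 4 preparations, with 1 array each. They were embryonic stem cells of 129/Ola mice (ES), embryonic fibroblasts (MEF), fibroblasts treated with purmorphamine in combination and then with 2i/LIF (PM2i-iPSC), and fibroblasts treated with an oxysterol in combination and then with 2i/LIF (OM2i-iPSC). Both induced pluripotent stem cell preparations therefore share the fibroblast source and the 2i/LIF step, and differ by name in purmorphamine or oxysterol. Purmorphamine activates Smoothened in the Hedgehog pathway, 2i is a pair of kinase inhibitors and LIF is a cytokine that sustains mouse stem cells. The labels do not name the oxysterol, its dose, the passage, the strain of the fibroblasts, or whether a preparation was 1 clone. The sources used here do not say whether any of these agents was still present when RNA was taken. The other 4 samples of the series, on an Affymetrix platform, were not used, because no table at hand pairs their probe sets with genes.

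Levels are log2 of the processed Cy3 signal relative to the 75th percentile of the array. A level of 0 equals that percentile, and the percentile was a signal of 3426 for OM2i-iPSC, 3529 for PM2i-iPSC, 3162 for ES and 1877 for MEF. No test was possible with 1 array per group. Precision was judged from probes printed in several spots: their spot-to-spot SD within an array was 0.204, which corresponds to 0.288 for a difference between 2 arrays and 0.576 for 2 SD of such a difference. Below a level of -2 the spot SD was wider, at 0.247. Above a level of 1 it was narrower, at 0.159, or 0.449 for 2 SD of a difference. Differences under 0.576 are called within the spot spread here, and that spread leaves out the variation between cultures. Probe positions are given in mouse build mm7, the build in the header of the scan they were read from, and headers of the other scans name mm8. ES and PM2i-iPSC lay on the same slide, OM2i-iPSC lay on another slide scanned on the same day, and MEF lay on yet another slide scanned on another day with an older software version. For OM2i-iPSC and for MEF, slide and preparation cannot be told apart. Markers were read against the labels: the summed signal of 8 pluripotent cell markers was between 8326 and 11183 percent of the 75th percentile in ES and both iPSC preparations and 143 percent in MEF, and 9 fibroblast markers summed to 13793 percent in MEF and to between 497 and 656 percent elsewhere.

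Both receptors were measured at low levels on each array. Nr1h2, which encodes the widely expressed liver X receptor beta, stood at -2.72 in OM2i-iPSC, -2.58 in PM2i-iPSC, -1.88 in ES and -2.41 in MEF (probe at chr7:40724452-40724511, minus strand). From ES through MEF and PM2i-iPSC down to OM2i-iPSC no step between neighbours exceeded the spot spread. Across that whole range OM2i-iPSC was 1.79-fold below ES, a log2 difference of -0.84. That difference passed 2-fold under quantile normalization, at -1.07. Nr1h3, which encodes liver X receptor alpha, stood at -2.91 in OM2i-iPSC, -2.52 in PM2i-iPSC, -2.79 in ES and -3.88 in MEF (probe at chr2:91034994-91035053, minus strand). The 3 pluripotent preparations were not separated between neighbours, and MEF lay below them. OM2i-iPSC differed from ES by -0.12, within the spot spread. It was 1.96-fold above MEF, with a difference of 0.97, but this difference was 0.07 under quantile normalization and 0.00 under normexp with quantile normalization. Neither receptor transcript was higher in OM2i-iPSC than in ES or PM2i-iPSC on these arrays.

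**Figure D1:**
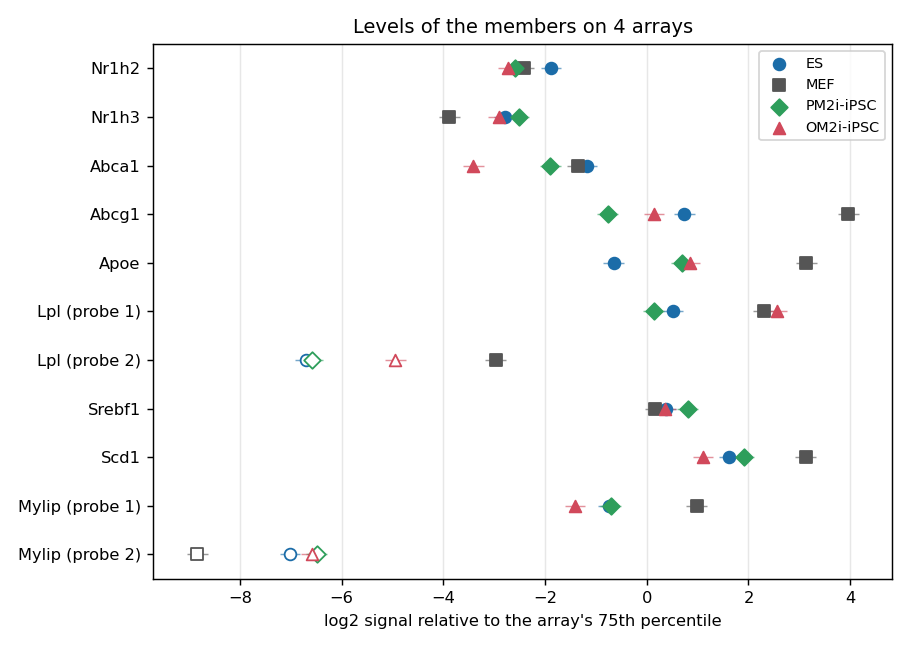
Each point is the level of a probe on 1 array, as log2 signal relative to the 75th percentile of that array, for the 11 probes of the 9 genes. Horizontal bars are 1 SD of spots of the same probe (0.204), and open points were not well above background. Abca1 of OM2i-iPSC (-3.41) lies to the left of the other arrays, and Lpl probe 1 of OM2i-iPSC (2.56) lies beside MEF (2.30).

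Abca1 was lower in OM2i-iPSC than on each of the other 3 arrays, and of the 9 members it lay furthest below ES and PM2i-iPSC. Abca1 encodes the transporter that loads cholesterol onto lipid-poor apolipoprotein A-I and is among the best known liver X receptor targets. Its level was -3.41 in OM2i-iPSC, -1.89 in PM2i-iPSC, -1.18 in ES and -1.36 in MEF, from processed signals of 322, 951, 1393 and 732. ES and MEF lay within the spot spread of each other, MEF and PM2i-iPSC differed by 0.53, and OM2i-iPSC stood apart below all 3. OM2i-iPSC was 4.69-fold below ES (difference -2.23), 4.15-fold below MEF (-2.05) and 2.87-fold below PM2i-iPSC (-1.52). Among all genes compared, 2.11% were as low or lower against ES, and 6.13% against PM2i-iPSC. Over 8 settings, the main one included, the difference from ES lay between -2.53 and -1.94. It rests on 1 spot of 1 probe per array, at chr4:53044891-53044950 on the minus strand. The first 30 bases of that probe are shown because this oligonucleotide carries the largest decrease among the members against ES:
Abca1 probe, bases 1 to 30: gttgcatccctttttgtagaacatttatat

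Abcg1, which encodes a transporter that exports cholesterol to mature high-density lipoprotein, had the widest range of any member. Its level was 0.14 in OM2i-iPSC, -0.77 in PM2i-iPSC, 0.74 in ES and 3.97 in MEF (probe at chr17:29310847-29310906, plus strand). MEF was highest, and each neighbouring pair in the order MEF, ES, OM2i-iPSC, PM2i-iPSC differed by more than the spot spread. OM2i-iPSC was 14.2-fold below MEF (-3.82) and 2.88% of genes were as low or lower in that comparison. PM2i-iPSC was 26.7-fold below MEF (-4.74) and ES was 9.38-fold below MEF (-3.23). Against the pluripotent arrays OM2i-iPSC took a middle place, 1.51-fold below ES (-0.60) and 1.88-fold above PM2i-iPSC (0.91). The 2 exporters therefore differed in where OM2i-iPSC stood relative to PM2i-iPSC: lower for Abca1, higher for Abcg1.

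Promoter sequence was examined because the receptors act through DR4 elements. RefSeq promoters of assembly GRCm38.p6, from 250 bases before to 50 bases after each start, were at hand for 6 of the 9 members, with 11 promoters in all, and for none of Abcg1, Lpl and Scd1. The consensus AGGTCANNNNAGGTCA, searched on both strands with up to 3 mismatches, matched in 2 of those 11, in Abca1 and in 1 of the 3 Srebf1 promoters. It matched in 7189 of all 32851 promoters of the same length, or 21.9%, so a match at this tolerance is common. The Abca1 and Srebf1 matches had a form in common, GGGTTANNNNCGGTCA, read on the strand opposite to the gene. This form was chosen after those promoters were read, and without mismatch it was present in 3 of 32851 promoters (0.00913%): those of Abca1, Srebf1 and Fasn, the fatty acid synthase gene. The windows below are on the minus strand of GRCm38.p6, with the 16 bases of the element in capitals. The element starts 67 bases before the Abca1 start, 182 before the Srebf1 start and 225 before the Fasn start.
Abca1, chr4:53159896-53160022: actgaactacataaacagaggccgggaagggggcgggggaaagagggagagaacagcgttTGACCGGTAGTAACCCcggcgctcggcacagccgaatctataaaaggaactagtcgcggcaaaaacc
Srebf1, chr11:60210578-60210713: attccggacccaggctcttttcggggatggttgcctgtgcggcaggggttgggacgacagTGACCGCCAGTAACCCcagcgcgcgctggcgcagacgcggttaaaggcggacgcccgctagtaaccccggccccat
Fasn, chr11:120824697-120824797: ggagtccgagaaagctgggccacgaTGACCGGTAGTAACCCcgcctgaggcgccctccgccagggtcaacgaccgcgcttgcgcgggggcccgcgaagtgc

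On their brightest probes, the 3 genes with this element did not share a pattern over the arrays. Abca1 was 4.69-fold lower in OM2i-iPSC than in ES. Srebf1 stood at 0.37 on both arrays. That level comes from 1 probe of the gene, and which Srebf1 promoter it reports was not examined. The brighter Fasn probe stood at 2.45 in OM2i-iPSC, 2.45 in PM2i-iPSC, 2.50 in ES and 2.29 in MEF, so its arrays lay within the spot spread. A dimmer Fasn probe differed from the brighter one: it differed by -0.89 between OM2i-iPSC and ES, by -1.70 between OM2i-iPSC and PM2i-iPSC and by 1.41 between OM2i-iPSC and MEF. A sequence match describes the promoter and does not show that a receptor is bound there.

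Apoe, which encodes the apolipoprotein that carries cholesterol between cells and binds lipoprotein receptors, was the best measured member, with 10 spots per array, of which 7 were kept in ES. Its level was 0.84 ± 0.144 in OM2i-iPSC, 0.69 ± 0.115 in PM2i-iPSC, -0.65 ± 0.0734 in ES and 3.14 ± 0.0661 in MEF (SD over 7 spots in ES and 10 elsewhere; probe at chr7:17378757-17378816, minus strand). Single spots ran from 0.62 to 1.06 in OM2i-iPSC (median 0.81), from 0.43 to 0.83 in PM2i-iPSC (median 0.67), from -0.77 to -0.59 in ES (median -0.61) and from 2.96 to 3.20 in MEF (median 3.15). The spots of ES and MEF overlapped with no other array, whereas those of the 2 iPSC preparations overlapped with each other. OM2i-iPSC was 2.82-fold above ES, 4.90-fold below MEF (-2.29) and 1.11-fold above PM2i-iPSC (0.16). PM2i-iPSC was likewise 2.53-fold above ES (1.34). Both preparations made from fibroblasts thus lay between ES and MEF for this gene.

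Lpl was the member that most separated OM2i-iPSC from PM2i-iPSC. Lpl encodes lipoprotein lipase, which is secreted and releases fatty acids from triglyceride-rich lipoproteins at the vessel wall. Its brighter probe stood at 2.56 in OM2i-iPSC, 0.14 in PM2i-iPSC, 0.52 in ES and 2.30 in MEF, from processed signals of 20206, 3884, 4524 and 9225. The arrays fell into 2 pairs, ES with PM2i-iPSC and MEF with OM2i-iPSC, and within a pair the difference was within the spot spread. OM2i-iPSC was 4.12-fold above ES (2.04), where 5.74% of genes were as high or higher, and 5.36-fold above PM2i-iPSC (2.42), where 2.44% were. It was 1.20-fold above MEF (0.26), a difference whose sign changed with the scaling and the choice of probes. No Lpl spot was saturated.

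A second Lpl probe gave a partly different picture. Its level was -4.94 in OM2i-iPSC, -6.58 in PM2i-iPSC, -6.71 in ES and -2.97 in MEF, and it was well above background in MEF alone. OM2i-iPSC, with a signal of 112 against a detection floor of 142, was at least 3.07-fold below MEF on this probe. The probes agreed on MEF being above ES and PM2i-iPSC (3.44-fold and 4.47-fold on the brighter probe, at least 4.47-fold and at least 3.07-fold on the dimmer one). They disagreed on OM2i-iPSC against MEF, and the dimmer probe gave no fold against ES or PM2i-iPSC, since both sides were not well above background. Their first 30 bases are shown because the result for Lpl turns on which oligonucleotide is read. Probe 1 lies at chr8:67361126-67361185 and probe 2 at chr8:67355909-67355968, both on the plus strand.
Lpl probe 1, bases 1 to 30: gaacaccaacccacatgcaaaaccccacaa
Lpl probe 2, bases 1 to 30: cgaggtttccacaaataaaacctactcctt

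**Figure D2:**
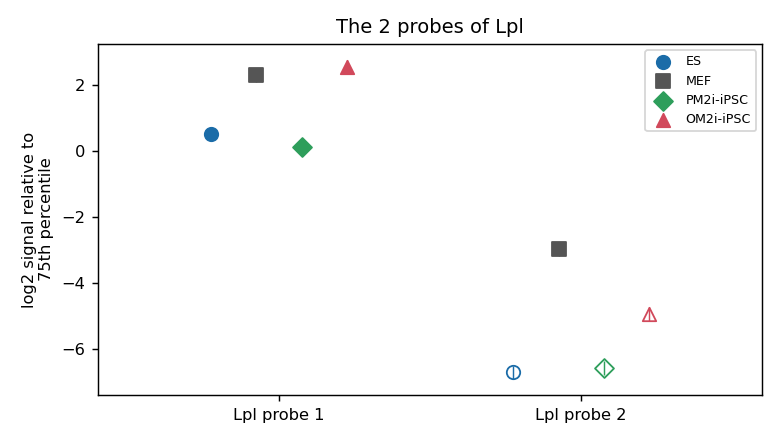
The vertical axis is log2 signal relative to the 75th percentile of the array, for the brighter and the dimmer Lpl probe on the 4 arrays. Bars are 1 SD of spots of the same probe and open points were not well above background. On probe 1, MEF (2.30) and OM2i-iPSC (2.56) lie above ES and PM2i-iPSC, and on probe 2 the MEF point alone was well above background.

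Of the lipogenic members, Srebf1 was the flattest and Scd1 was lowest in OM2i-iPSC. Srebf1 encodes the transcription factor SREBP-1, which activates fatty acid synthesis, and stood at 0.37 in OM2i-iPSC, 0.80 in PM2i-iPSC, 0.37 in ES and 0.17 in MEF (probe at chr11:60281270-60281329, minus strand). Neighbouring arrays in the order of levels lay within the spot spread, and the whole range was 1.56-fold. Scd1 encodes a stearoyl-CoA desaturase, the enzyme that makes monounsaturated fatty acids. It stood at 1.11 in OM2i-iPSC, 1.91 in PM2i-iPSC, 1.62 in ES and 3.12 in MEF (probe at chr19:44288770-44288829, minus strand). MEF was highest and OM2i-iPSC was 4.04-fold below it (-2.02). OM2i-iPSC was 1.43-fold below ES (-0.52), within the spot spread of 0.576 but beyond the 0.449 of levels above 1. It was 1.75-fold below PM2i-iPSC (-0.81), beyond both. With normexp and quantile normalization the difference from PM2i-iPSC was -1.23.

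Mylip, the ubiquitin ligase gene, stood at -1.41 in OM2i-iPSC, -0.71 in PM2i-iPSC, -0.74 in ES and 0.98 in MEF on its brighter probe (chr13:44861360-44861419, plus strand). ES and PM2i-iPSC differed by less than the spot spread, MEF was highest and OM2i-iPSC lowest. OM2i-iPSC was 5.25-fold below MEF (-2.39), 1.59-fold below ES (-0.67) and 1.63-fold below PM2i-iPSC (-0.70). A second probe at chr13:44858383-44858442 was not well above background on any of the 4 arrays. Averaging it with the first reduced the difference from MEF to -0.07.

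Read together against ES, 2 of the 9 members were at least 2-fold higher in OM2i-iPSC (Apoe and Lpl) and 1 was at least 2-fold lower (Abca1). Among all 20355 genes compared, 20.9% passed 2-fold upward and 13.3% downward, so the members' counts were near the background. The members' median difference was -0.52, beside 0.02 for all genes. Against PM2i-iPSC, Lpl was higher and Abca1 lower, 1 member each way, against a background of 17.2% higher and 12.2% lower of 20166 genes. The members' median was -0.39, beside 0.09 for all genes. With normexp and quantile normalization the count against PM2i-iPSC was 5, with Abcg1 added above and Scd1 and Mylip below. The share of all genes under that setting is not given here.

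Against MEF no member was at least 2-fold higher on its brighter probe, and 5 were at least 2-fold lower: Abcg1, Mylip, Apoe, Abca1 and Scd1. In that comparison 36.8% of 21910 genes passed 2-fold upward and 23.3% downward. The members' median was -2.02, beside 0.14 for all genes, and the median of all genes moved to 0.00 when arrays were scaled to their median. PM2i-iPSC shares the MEF array with that comparison. Its own values against MEF were -4.74 for Abcg1, -2.45 for Apoe, -2.16 for Lpl, -1.69 for Mylip, -1.21 for Scd1 and -0.53 for Abca1, with Nr1h3 at 1.36. Lpl and Abca1 showed the widest gaps between the 2 iPSC preparations. On its brighter probe Lpl was near the MEF level in OM2i-iPSC and 4.47-fold below it in PM2i-iPSC. Abca1 was 4.15-fold below MEF in OM2i-iPSC and within the spot spread of MEF in PM2i-iPSC.

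**Figure D3:**
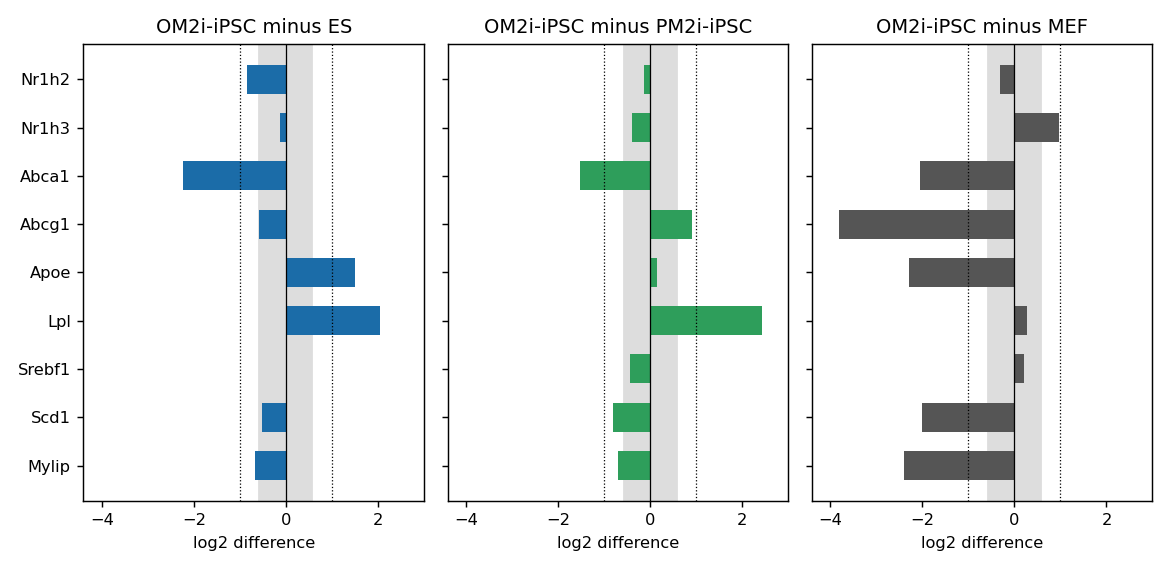
Bars are log2 differences of OM2i-iPSC from ES, PM2i-iPSC and MEF for the brighter probe of each gene. The grey band is 2 SD of a difference between spots (0.576) and dotted lines mark 2-fold. Abca1 lies beyond the lower line in all 3 panels, and Lpl lies beyond the upper line against ES and PM2i-iPSC but inside the band against MEF.

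The same values can be put on a scale where ES is 0% and MEF is 100%. Over 8674 genes at least 2-fold apart between ES and MEF and well above background on each array, the median position was 2.40% in OM2i-iPSC (quartiles -30.7% and 32.4%) and 1.52% in PM2i-iPSC (quartiles -23.0% and 26.5%). On its brighter probe Lpl was at 115% in OM2i-iPSC and at -21.2% in PM2i-iPSC. Its dimmer probe put OM2i-iPSC at least 3.07-fold below MEF, so this position depends on the probe. Apoe was at 39.5% in OM2i-iPSC and 35.4% in PM2i-iPSC, above the upper quartile of each. Abcg1, at -18.4% and -46.7%, lay on the side of ES away from MEF in both. Scd1 was at -34.4% and 19.4%, Mylip at -38.6% and 2.05%, and Nr1h3 at 10.8% and -25.2%. Abca1, Nr1h2 and Srebf1 did not differ by 2-fold between ES and MEF and have no position.

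For each member that ranged over at least 4-fold and was well above background on all 4 arrays, the 2 genes with the nearest pattern were found among 15892 genes, by Euclidean distance of mean-centred log2 levels over the 4 arrays. They were Gclm (distance 0.0342) and Zfc3h1 (0.0627) for Abca1, and Sin3b (0.215) and Sh3kbp1 (0.251) for Abcg1. For Apoe they were Il4ra (0.130) and Ier5 (0.131), and for Lpl they were Ntm (0.143) and a transcript listed as ENSMUST00000035012 (0.193). Xpr1 (0.0563) and Gatad2b (0.0831) were nearest to Scd1, and Crls1 (0.110) and Pgrmc1 (0.131) to Mylip. With 4 arrays many genes lie close to any pattern: 549 lay within a distance of 1 of Abca1, 167 of Lpl, 141 of Abcg1, 187 of Apoe, 2346 of Scd1 and 1777 of Mylip. No member was among the 2 nearest genes of another member.

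The wider pathway was read from 9 lists of 85 genes. Of the 77 with a value against ES, 13 passed 2-fold upward and 12 downward in OM2i-iPSC, with a median of 0.18, beside 20.9% and 13.3% of all genes. Against PM2i-iPSC 16 were higher and 9 lower of 75, with a median of 0.15, beside 17.2% and 12.2%. Against MEF 37 were higher and 18 lower of 82, with a median of 0.70, beside 36.8% and 23.3%. Lists and members were chosen with results of these arrays known, and the counts describe these 4 arrays.

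Among 8 receptor partners and coregulators, 4 were at least 2-fold lower and 0 higher in OM2i-iPSC than in ES, with a median of -0.49. Of all genes, 13.3% were lower and 20.9% higher. Rxra, the gene of retinoid X receptor alpha, stood at 0.82 in OM2i-iPSC, 2.68 in PM2i-iPSC, 2.05 in ES and 3.56 in MEF. It was lowest in OM2i-iPSC, 2.35-fold below ES and 3.64-fold below PM2i-iPSC, and its dimmer probe, not well above background in OM2i-iPSC, was lower too, with a log2 difference from ES of -2.28 or beyond. Rxrb stood at -2.50, 0.07, 0.32 and 0.63 in the same order of arrays, 7.06-fold below ES in OM2i-iPSC, but its other probe differed from ES by 0.37, so its probes disagreed. The corepressor gene Ncor1 (2.16-fold) and the coactivator gene Ncoa3 (2.06-fold) made up the rest of the 4. Their probes disagreed too: others of Ncor1 differed from ES by -0.81 to 1.99, and others of Ncoa3 by -1.52 and 0.84. Against PM2i-iPSC, Rxrg was 2.96-fold higher, and Rxra and Rxrb were lower.

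Of the other known liver X receptor targets, 13 had a value against ES. At least 2-fold higher were 3 and lower was 1, beside 20.9% and 13.3% of all genes, with a median of 0.33. Mertk, the gene of a receptor kinase for apoptotic cell uptake, stood at -0.58 in OM2i-iPSC, -2.77 in PM2i-iPSC, -2.10 in ES and -3.69 in MEF. OM2i-iPSC was highest on this gene, 2.87-fold above ES, 4.56-fold above PM2i-iPSC and 8.61-fold above MEF. Apoc2, whose product is the cofactor that activates lipoprotein lipase, was 2.44-fold above ES, at -0.60 against -1.89. Mlxipl, the gene of the carbohydrate-responsive factor ChREBP, was 2.80-fold above PM2i-iPSC and 43.4-fold above MEF, and its dimmer probe differed from PM2i-iPSC by 0.19. Apoc1 was 59.1-fold above MEF, and it stood at 2.67 in ES and 2.68 in OM2i-iPSC.

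The lipases and their partners included 1 gene higher and 1 lower of 7 against ES (median 0.68), beside 20.9% and 13.3% of all genes. Against PM2i-iPSC 3 were higher and 1 lower of 7, beside 17.2% and 12.2%. Gpihbp1, whose product carries lipoprotein lipase to the vessel lumen, stood at -1.05 in OM2i-iPSC, -2.38 in PM2i-iPSC, -3.00 in ES and -3.84 in MEF. Like Mertk it was highest in OM2i-iPSC, 3.87-fold above ES and 2.52-fold above PM2i-iPSC. Lipe, the gene of hormone-sensitive lipase, was 2.82-fold below ES and 3.04-fold below PM2i-iPSC. Lipa, the gene of lysosomal acid lipase, was 2.23-fold above PM2i-iPSC and 4.47-fold below MEF.

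Of 12 sterol storage and transport genes, 4 were at least 2-fold above ES and 1 below, with a median of 0.67, beside 20.9% and 13.3% of all genes. Soat2, which encodes a cholesterol-esterifying enzyme, stood at -1.99 in OM2i-iPSC, -3.15 in PM2i-iPSC, -4.54 in ES and -5.77 in MEF, so OM2i-iPSC was 5.86-fold above ES and 2.24-fold above PM2i-iPSC. Abcg4, a transporter gene related to Abcg1, was 3.83-fold above ES, at low levels of -2.40 against -4.34. Abca2 was above PM2i-iPSC by 2.38 on the log2 scale, and its other probe by 1.71. Abcg4 against ES and Abca2 against PM2i-iPSC were thus higher in OM2i-iPSC where Abca1 was lower. Both were named for their wide differences, and transporters did not share a direction. The member Abcg1 was 1.51-fold below ES and 1.88-fold above PM2i-iPSC.

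The oxysterol-producing and -clearing enzymes had 2 genes higher and 0 lower of 7 against ES, beside 20.9% and 13.3% of all genes. Their median was 0.54. Cyp7b1, which hydroxylates oxysterols on the way to bile acids, stood at -1.22 in OM2i-iPSC, -1.37 in PM2i-iPSC, -3.17 in ES and 1.15 in MEF. It was 3.87-fold above ES in OM2i-iPSC and 1.11-fold above PM2i-iPSC, so both iPSC preparations held a level between ES and MEF, as they did for Apoe. Cyp46a1, the brain cholesterol 24-hydroxylase gene, was 2.11-fold above ES and 3.05-fold below PM2i-iPSC.

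Fatty acid synthesis and desaturation genes were at least 2-fold higher in 1 and lower in 3 of 11 against ES, with a median of -0.62. For this and the next 3 lists the share of all genes was 20.9% higher and 13.3% lower. The elongase gene Elovl5 was 2.47-fold and the desaturase gene Fads1 2.32-fold below ES. Acaca was 3.55-fold above ES on its brightest probe, but another probe differed by -0.99, so its probes disagreed. The lipoprotein receptors had 0 higher and 1 lower of 7, and the SREBP processing genes 1 higher and 0 lower of 6. Among 6 apolipoprotein genes with a value, Apoa4 was 5.08-fold above ES and Apod 2.76-fold below.

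**Figure D4:**
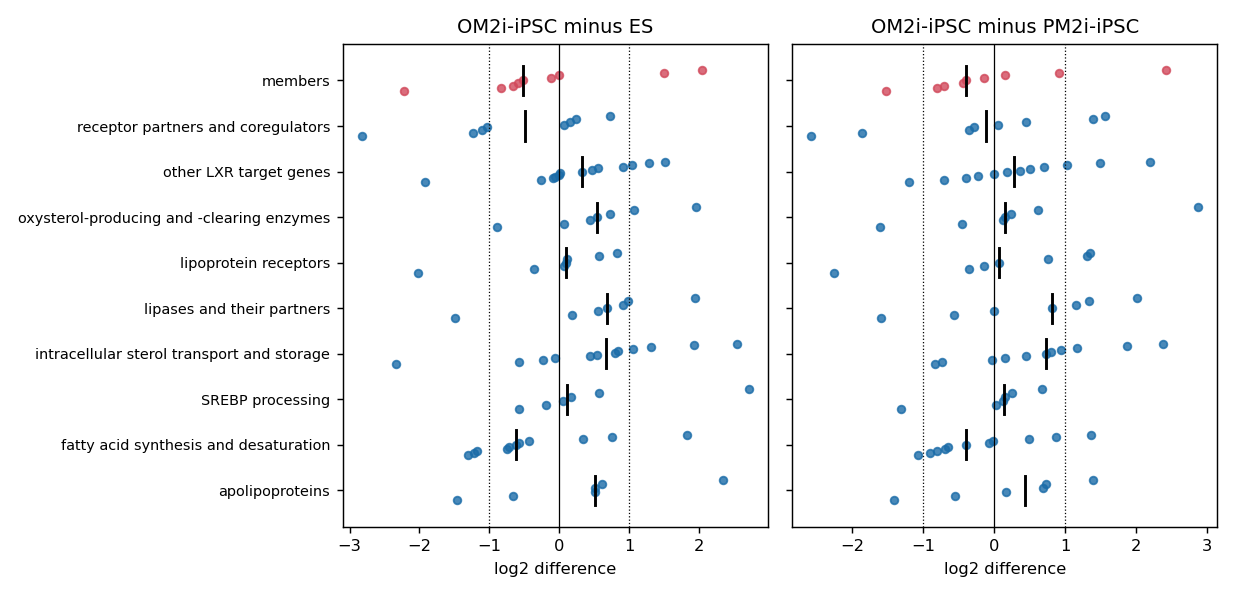
Each point is the log2 difference of 1 gene between OM2i-iPSC and ES (left) or PM2i-iPSC (right), for the 9 members and the 9 pathway lists. Vertical bars are list medians and dotted lines mark 2-fold. Each list spreads to both sides of 0, and the list medians against ES lie between -0.62 and 0.68.

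Several members are also high in macrophages and adipocytes, so markers of those cells were read beside them. The 9 macrophage markers summed to 342 percent of the 75th percentile in OM2i-iPSC, 397 in PM2i-iPSC, 484 in ES and 890 in MEF. The brightest probes of Tyrobp and Adgre1 were well above background in MEF alone, where they stood at 0.93 and 0.59. The other Adgre1 probe went the other way, well above background in OM2i-iPSC alone, at -4.09. Of 3 Csf1r probes, the brightest was well above background except in OM2i-iPSC, and the dimmer ones, at -4.04 and -4.24, were well above background there. Other markers of the list differed in their order. Fcer1g was highest in MEF, at 1.93, but Cd68 was highest in ES, at 1.33 beside 0.08 in MEF. The brightest Itgam probe was higher in OM2i-iPSC (-2.98) than in MEF (-5.71). The dimmer Itgam probe was well above background in MEF, at -4.71, and not in OM2i-iPSC, at -4.87. That level lay under the OM2i-iPSC floor, so this probe gave no fold between them. Cd14 stood at -2.03 in OM2i-iPSC and -2.17 in MEF. By their brightest probes, 8 of these 9 markers were well above background in MEF and 5 or 6 elsewhere. Of all probes, 72.4% were well above background in MEF and between 63.4% and 66.7% elsewhere. The detection floor was also lowest in MEF, at a level of -6.85, beside -5.13 in ES and -4.59 in both iPSC preparations. Abcg1, Apoe, Scd1 and Mylip were highest in MEF, as was the summed signal of these markers. The part of macrophage RNA in the MEF levels of those members was not tested. A bulk array also cannot tell apart fewer cells of a type from less RNA per cell.

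The 8 adipocyte markers summed to 291 percent in OM2i-iPSC, 204 in PM2i-iPSC, 171 in ES and 199 in MEF, with 5, 3, 5 and 5 of them well above background. Of all probes, 66.1%, 63.4%, 66.7% and 72.4% were well above background in the same order. Fabp4, a fatty acid binding protein gene, stood at 0.93, 0.55, 0.44 and 0.77 in that order, a range within the spot spread on its brightest probe. Its other 2 probes were well above background in MEF alone, at 0.02 and -4.47. The one at 0.02 disagreed with the brightest probe, with a log2 difference between OM2i-iPSC and MEF of -4.61 or beyond. For the one at -4.47 that bound was -0.11, so it says little about the direction. Cfd and Cidec were not well above background on any of the 4 arrays. Pparg, the adipogenic nuclear receptor gene, is singled out after its values were seen. It stood at -1.15 in OM2i-iPSC, -3.58 in PM2i-iPSC, -4.31 in ES and -3.00 in MEF. OM2i-iPSC was thus 8.90-fold above ES, 5.36-fold above PM2i-iPSC and 3.61-fold above MEF. The other detected markers were mixed. Adipoq stood at -1.64 in OM2i-iPSC, -1.50 in PM2i-iPSC, -2.58 in ES and -5.00 in MEF. Plin1 stood at -3.46 in OM2i-iPSC and -3.31 in MEF. The brighter Retn probe was well above background in OM2i-iPSC alone, at -3.66. Lep was well above background in ES (-4.74) and MEF (-6.28) alone. Its level of -4.62 in OM2i-iPSC lay just under the floor of that array (-4.59), so the Lep flags do not order the arrays. The part of these cells in the Lpl level of OM2i-iPSC was not tested.

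The 9 fibroblast markers summed to 525 percent in OM2i-iPSC, beside 497 in PM2i-iPSC and 13793 in MEF. The collagen gene Col1a2 stood at 1.58 in OM2i-iPSC, 1.04 in PM2i-iPSC, 1.94 in ES and 5.16 in MEF. Thy1 stood at 0.18, 0.78, 0.70 and 4.77 in that order. The Col3a1 probe that was brightest over the 4 arrays, singled out after its values were seen, stood at -0.47, -1.46, -2.60 and -0.33, so OM2i-iPSC was near MEF and 4.37-fold above ES. Another Col3a1 probe stood at 1.70 in MEF and was not well above background in OM2i-iPSC, so the probes of this gene disagreed. The 7 astrocyte markers summed to 2191 percent in OM2i-iPSC, 1339 in PM2i-iPSC, 1384 in ES and 2634 in MEF. The 8 visceral endoderm and hepatocyte markers summed to 1972, 2325, 2317 and 2416 percent in the same order of arrays. Most of that sum is the brightest Gata6 probe, at 4.10, 4.30, 4.32 and 4.50, with a saturated side in every comparison. The sums therefore say little about the other endoderm markers. The 7 trophoblast markers summed to 1514, 1372, 1913 and 399 percent in that order. Krt7 and Tfap2c, the brightest of the trophoblast list, make up most of its sum. Singled out after their values were seen, 2 dimmer members of that list were highest in OM2i-iPSC, as Pparg was. Cdx2 stood at 0.43 in OM2i-iPSC, 11.1-fold above ES and 12.8-fold above PM2i-iPSC, and Hand1 at -2.72, 4.08-fold above ES and 3.08-fold above PM2i-iPSC. The rest of the trophoblast list did not follow Cdx2 and Hand1. Eomes was lower in OM2i-iPSC (-2.27) than in ES (-1.73) and PM2i-iPSC (-1.56). Tfap2c stood at 3.03 in OM2i-iPSC and 3.71 in ES, and Krt7 at 2.37 and 2.46. Gata3 was highest in MEF, at 0.75, and Elf5 was not well above background on any array. The part of trophoblast cells in the Lpl level was not tested.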

How the data were processed

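Spot intensity was read from the scanner files deposited by the authors. Per the file headers the MEF scan was extracted with Feature Extraction 9.5.3.1, with spatial and multiplicative detrending, and the other scans with version 10.7.3.1, whose detrending settings the sources used here do not state. Intensity in the deposited series table matched these signals, neither centred nor on a log scale, within 0.498% per spot (array medians 522 for OM2i-iPSC, 493 for PM2i-iPSC, 414 for ES and 165 for MEF).

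Control spots and feature outliers were dropped, replicate spots were averaged, and each log2 processed signal was set against its array's 75th percentile. Probes were named through the RefSeq table of GRCm38.p6: 22865 by accession, 6638 by symbol and 3099 by older symbol, and 8413 kept the name in the file. Probe coordinates and sequences are those of the MEF scan, with grid build mm7 in its header and mm8 in the others. Positions relative to exons and UTRs were not analysed here. A gene took its brightest probe, and 8870 genes had several. A gene entered a comparison when either array showed it well above background. A side not well above background was raised to the higher of itself and the detection floor, the lowest signal that its array called well above background (142 in OM2i-iPSC, 147 in PM2i-iPSC, 90.1 in ES, 16.3 in MEF), and the fold is then written "at least". With 1 array per group no test was made, and genes were counted at 2-fold.

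Every member is named. Of each pathway list, up to 2 genes per direction with the widest measured difference, and of each marker list the 2 brightest genes, were eligible. Ncor1, Ncoa3, Fasn, Pparg, Tyrobp, Adgre1, Csf1r, Cfd, Cidec, Col3a1, Cdx2 and Hand1 were added after their values were seen. Itgam, Cd14, Plin1, Retn, Lep, Eomes, Gata3 and Elf5 were added in the same way. The members and lists were chosen with earlier results of these data known. The counting was tested on simulated data. Python 3.11.15, numpy 2.4.6, pandas 2.3.3, R 4.3.3 and limma 3.58.1 (normexp and quantile normalization) were used. Results for some genes of the pathway lists are not reported here.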

Additional observations from a re-analysis of the deposited data

Results flagged for a closer look

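Lpl differed from ES in opposite directions in the 2 iPSC preparations, by 2.04 on the log2 scale in OM2i-iPSC and by -0.38 in PM2i-iPSC. Scd1 did so too, by -0.52 in OM2i-iPSC and by 0.29 in PM2i-iPSC. Both preparations were set against the same ES array, and of these 4 values only that of Lpl in OM2i-iPSC exceeded the spot spread of 0.576. The Scd1 value of -0.52 exceeded the narrower 0.449 of levels above 1. With 1 array per preparation, the difference between the preparations was not tested.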

How the results depend on the processing

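The alternatives were quantile normalization, scaling to the median of probes above background, normexp with quantile normalization, the mean of all probes of a gene, no filter on dim probes, a filter on both arrays, the deposited series table and a 4-fold threshold. The normexp correction was planned on mean signals, which 3 of the 4 files do not hold, and was run on median signals. The count of members at least 2-fold apart was 2 against PM2i-iPSC, beside 17.2% higher and 12.2% lower of all genes. It was 5 with normexp and quantile normalization, which is 2 higher and 3 lower, and 1 at 4-fold, which is Lpl. The shares of all genes against PM2i-iPSC under these alternatives are not given here, and the cause was not tested. The count was 3 against ES (2 to 4 over the alternatives) and 5 against MEF (4 to 6). Against ES it was 4 under quantile normalization, where 19.2% of all genes were higher and 14.7% lower. At 4-fold it was 2, beside 6.09% and 2.95%. Against MEF it was 6 under quantile normalization, beside 32.2% and 24.7%. With the mean of all probes it was 4, beside 38.2% and 19.8%. The differences of Abca1 from ES (-2.53 to -1.94) and from PM2i-iPSC (-1.74 to -1.39), of Lpl from ES (1.90 to 2.25) and from PM2i-iPSC (2.03 to 2.65), and of Apoe from ES (1.48 to 1.59) kept their direction and stayed beyond 2-fold. The Lpl difference from MEF ranged from -0.85 to 0.78 and that of Srebf1 from -0.10 to 0.43, so their directions depended on the setting. Each member's difference was counted once per alternative: 33 moved by more than the SD of a difference between spots (0.288) and 156 did not. Many of the 156 could not move, so their number does not measure stability. The brightest probe of every member was well above background on each array, so the filter settings changed nothing. A mean of all probes changes nothing for a gene with 1 probe, and the deposited table held nearly the same signals. Of the pathway list counts, also taken once per alternative, 36 moved by more than 1.5 times and 180 did not. No paired analysis was possible because each group has 1 array. Signals near the detection floor limit the second probes of Lpl and Mylip.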
